A study of Mus musculus with 36 samples.

Results

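The thymus of mice whose p53 lacks its C-terminus (d24) was compared with the thymus of mice with wild-type p53 (wt), by sequencing of total RNA from pieces of whole organ. The comparison took the 3 d24 and the 3 wt thymus libraries of the single-end sequencing run, which are 6 of the 36 samples of the series; the other samples are liver and spleen libraries of the same run and wt libraries of a paired-end run. Of 17697 genes in the single-end table, 13818 reached a signal of 1 in 3 or more of the 6 libraries and were tested. Signal here is the deposited value per gene, a scaled read count whose scaling the sources used here do not name for the single-end run. The titles place all 6 libraries in an X-ray arm. The characteristics do not: for the wt libraries they give X-rays at 2 Gy with collection 3 h later, and for the d24 libraries they give control as the treatment and WT as the cell type. Groups follow the titles here. If the treatment characteristics are right, genotype and X-ray exposure cannot be told apart, and if the cell type is right too, the d24 libraries are wild-type. No label names the strain, sex or age of the mice, or says whether replicates came from separate animals, and p-values below measure only the spread between these libraries.

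p53 is a transcription factor that is kept low by the ubiquitin ligase Mdm2 and accumulates after DNA damage. It then binds pairs of short half-sites in its target genes, among them Cdkn1a, which stops the cell cycle, and Bax, Bbc3 (Puma) and Pmaip1 (Noxa), which drive mitochondrial cell death. Its lysine-rich C-terminal tail binds DNA without sequence preference and carries many modifications. Thymocytes, most of which carry both CD4 and CD8, are among the cells that die most readily by p53 after radiation, while the thymic epithelium, fibroblasts, vessels and fat around them are more resistant.

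The half-site that p53 recognises was searched for in the 250 bases before the start of each gene, since the results turn on p53 targets. The motif reads the same on both strands, and matches may lie next to or over each other. RefSeq promoter windows (GRCm38.p6) matched 56 of the 68 genes on the p53 lists, and 13 of these held a match (23.2%), against 8.20% of all 27025 genes with a window. A match is a description of the letters only. Over all 13818 tested genes, 9.02% had every d24 library above every wt library and 7.55% had every one below. Of the 13 genes, 5 had every d24 library above every wt library and 8 overlapped. Of the 43 genes with a window and no match, 8 had every d24 library above, 2 had every one below, 28 overlapped and 5 were not tested. The 4 windows below were chosen among the 5 for genes described in the results. Capitals mark the half-site, and the Cdkn1a window holds 2 of them.
Ccng1 (chr11:40755447-40755486, minus strand): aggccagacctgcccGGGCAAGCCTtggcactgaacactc
Ei24 (chr9:36797335-36797359, minus strand): tgccccgtgcggcccGGGCATGCCC
Bax (chr7:45467075-45467114, minus strand): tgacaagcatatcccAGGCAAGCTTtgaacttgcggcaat
Cdkn1a (chr17:29090891-29090952, plus strand): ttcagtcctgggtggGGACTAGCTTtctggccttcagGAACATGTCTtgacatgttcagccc

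The libraries held 21095973 to 38042710 reads in genes, so that 1 read was worth a signal of 0.0171 to 0.0309. All 6 were thymus by their markers: Rag1, the recombinase of developing lymphocytes, had a signal of 1623 to 3432. The library furthest from the rest was d24 replicate 3. It correlated with the others at r = 0.840 to 0.897 over log2 values of the tested genes, against 0.922 to 0.969 among the other 5. Its summed erythroid markers were 9193, against 47.9 to 205 elsewhere, its hepatocyte markers 1961, against 28.9 to 161, and its S phase genes 999, against 2874 to 3659. wt replicate 1 was the next apart: it correlated with d24 replicates 1 and 2 and the other wt libraries at 0.922 to 0.930, stood at -66.0 on the second principal component (21.9% of the variance) against -12.4 to 22.6, and had summed brown adipocyte markers of 72.8, against 3.46 and 11.2 in the other wt libraries. For d24 replicate 3, results are therefore given with and without it; what set these libraries apart was not tested. wt replicate 2 was the only library with a male pattern, at a signal of 0.772 for Xist and 85.5 for the Y-linked Ddx3y; the other 5 had Xist at 624 to 1281 and Ddx3y at 0.0272 to 0.0886. In pieces of whole organ, fewer cells of a type and less RNA per cell cannot be told apart.

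The X-ray labels were read against the paired-end wt thymus libraries, 3 untreated and 3 X-ray, which are a separate table with its own normalisation. In that table limma called 9.77% of 13810 genes higher after X-rays, and 201 of them by at least 1 on the log2 scale. For the 180 of these that were tested in the single-end table, each library was placed on a scale from 0, the untreated wt mean, to 1, the X-ray wt mean, after its median over all shared genes was aligned. The single-end wt libraries lay at -0.02, -0.08 and -0.08. The d24 libraries lay at 0.20, 0.28 and 0.55. Over the 33 p53 targets among these genes, the wt libraries lay at 0.11, -0.03 and -0.03 and the d24 libraries at 0.35, 0.32 and 0.38. The libraries titled and labelled as irradiated wt thymus thus lay at the untreated level, against their label, and the d24 libraries, labelled control, lay partway towards the X-ray level.

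**Figure D1:**
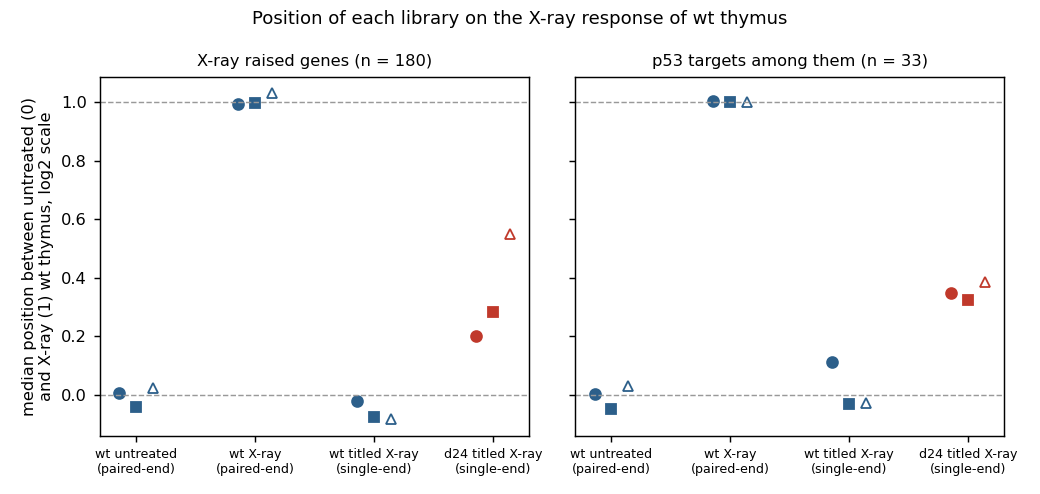
Median position of each library (symbols, replicates 1 to 3) between the means of untreated (0) and X-ray (1) paired-end wt thymus, on the log2 scale, for 180 X-ray raised genes (left) and 33 p53 targets among them (right). The single-end wt libraries sit between -0.08 and 0.11 and the d24 libraries between 0.20 and 0.55.

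One gene passed the test in the 6 libraries. Tnc encodes tenascin-C, a matrix glycoprotein of remodelling tissue, and lies on chromosome 4 (NCBI gene 21923, chr4:63959785-64047015 of GRCm38.p6). Its signal was 287, 242 and 264 in the d24 libraries and 83.1, 107 and 83.8 in the wt libraries. Tnc rose by 1.53 ± 0.16 on the log2 scale (SE; higher in 3 of 3 d24 libraries; limma, Benjamini-Hochberg adjusted p = 0.0238). The call was kept without d24 replicate 3 (adjusted p = 1.3e-05) and without d24 replicate 2 (0.0223), and lost without d24 replicate 1 (0.0508) or without wt replicate 1, 2 or 3 (0.333, 0.118 and 0.449), at 1.47 to 1.65 throughout. In the paired-end table, wt thymus had a Tnc signal of 78.2 ± 20.0 untreated and 119 ± 18.8 after X-rays (SD, n = 3 each).

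Over all genes, the share called by limma was 0.00724% (1 of 13818), with 1359 genes at an unadjusted p under 0.05 (9.83%). edgeR called 2 genes (0.0145%, with 1204 or 8.71% at an unadjusted p under 0.05), Tnc higher and Ybx2 lower, and DESeq2 called 266 (1.93%), 229 higher and 37 lower (1.66% and 0.268%). Without d24 replicate 3, limma called 71 of 13311 genes (0.533%), 43 higher and 28 lower (0.323% and 0.210%), and 54 of the 71 were also called by DESeq2 on all 6 libraries. All 3 d24 libraries lay above all 3 wt libraries for 1247 genes (9.02%) and below them for 1043 (7.55%). The median log2 difference of all tested genes was -0.02, and over the 13311 tested both ways -0.03, and 0.03 without d24 replicate 3. Of the 1247, 126 reached the filter through the d24 libraries alone, and of the 1043, 28 through the wt libraries alone. This fixed their separation, and Ybx2 is 1 of the 28. Such members are counted beside the lists below. Some members were no longer tested without d24 replicate 3, and medians with and without it are then given over the genes tested both ways. The lists below are described by their counts beside these shares.

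In the p53 panel of 11 genes, 10 were tested, 7 had every d24 library above every wt library (background 9.02%) and none had every one below. The median log2 difference was 1.17, and 0.86 without d24 replicate 3. Limma called none in the 6 libraries. Ccng1 and Pmaip1 passed without d24 replicate 3, and DESeq2 on all 6 called these with Bbc3 and Bax. Trp53 itself (chr11:69580348-69591873) had a signal of 145, 125 and 96.9 in d24 and 129, 107 and 125 in wt, overlapping groups with a log2 difference of 0.01 ± 0.18. A total over the gene does not check a deletion at its end.

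Of the arrest and feedback targets, Ccng1, cyclin G1, had the smallest p. Its signal was 239, 201 and 315 in d24 and 82.5, 94.8 and 116 in wt, with no overlap. The log2 difference was 1.35 ± 0.20 (limma, adjusted p = 0.0763), and 1.18 ± 0.15 without d24 replicate 3, where it passed (adjusted p = 0.000594). Zmat3, an RNA-binding zinc finger protein, had 43.2, 33.5 and 34.0 in d24 and 19.9, 15.3 and 9.04 in wt. The groups did not overlap, and Zmat3 passed without d24 replicate 3 (1.40 ± 0.31, limma adjusted p = 0.0406), having missed the threshold in all 6 (adjusted p = 0.229). Cdkn1a, the p21 inhibitor of cyclin-dependent kinases, had 25.8, 20.4 and 67.8 in d24 and 16.5, 11.3 and 16.1 in wt. All d24 values were the higher, but replicate 3 carried much of the mean: the log2 difference was 1.16 ± 0.41, and 0.65 ± 0.29 without it, and neither passed (limma adjusted p = 0.380 and 0.514). Mdm2 overlapped, at 76.0, 90.6 and 67.7 against 62.3, 74.1 and 79.3. Over the 16 tested genes of the list, 4 had all d24 libraries above, none below, and the median was 0.32 (0.21 without replicate 3).

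Of the 14 death targets tested, 6 had all d24 libraries above, none below, with a median of 0.61 (0.50 without d24 replicate 3). Pmaip1, the BH3-only protein Noxa, had 33.2, 28.7 and 27.6 in d24 and 3.56, 8.06 and 6.14 in wt. The d24 libraries were close to each other and all above wt, by 2.30 ± 0.34 on the log2 scale (limma, adjusted p = 0.0763). Pmaip1 passed without d24 replicate 3 (2.36 ± 0.38, adjusted p = 0.00378). Ei24, an endoplasmic reticulum protein first found as induced by etoposide, had 81.7, 75.4 and 94.5 in d24 and 37.5, 35.0 and 41.4 in wt. Its difference was 1.13 ± 0.18 (limma, adjusted p = 0.0873) and it passed without d24 replicate 3 (1.04 ± 0.18, adjusted p = 0.00598). Bbc3, the BH3-only protein Puma, had 21.3, 22.4 and 66.5 in d24 against 7.34, 8.18 and 7.15, again with no overlap and with replicate 3 the highest. It did not pass with or without that library (limma adjusted p = 0.220 and 0.0558). Bax, the pore former of the mitochondrial outer membrane, was 52.0, 46.0 and 48.1 in d24 and 30.5, 27.0 and 31.8 in wt, a log2 difference of 0.70 ± 0.19 that did not pass (limma adjusted p = 0.302). Phlda3, a brake on Akt, was 16.5, 16.3 and 27.8 against 13.04, 7.22 and 5.11. Aen, an apoptosis nuclease, overlapped, at 49.9, 45.04 and 27.1 against 29.7, 24.4 and 28.0: replicate 3 alone lay within the wt range.

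**Figure D2:**
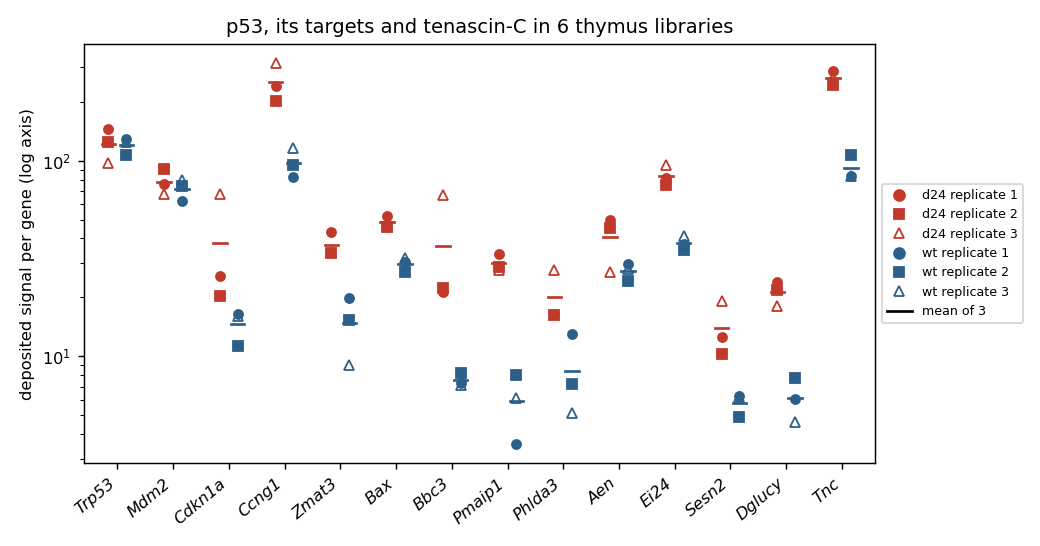
Deposited signal (log axis) of Trp53, 12 p53 targets and Tnc in each library: d24 red, wt blue, open triangles replicate 3, bars the means of 3. Pmaip1, Ccng1, Ei24, Bax and Tnc show separate groups, while Trp53, Mdm2 and Aen overlap.

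The repair targets did not share this pattern. Of 10 tested, none had all d24 libraries above and 1, the methyltransferase Mgmt, had all below, at 1.47, 3.35 and 3.38 against 6.33, 3.92 and 5.23. The median was -0.11 (-0.03 without d24 replicate 3). Pcna, the sliding clamp of replication and repair, was 234, 195 and 67.1 in d24 and 235, 191 and 230 in wt, low only in replicate 3. Polh, a translesion polymerase, was 27.0, 28.7 and 18.4 against 28.5, 32.7 and 38.8.

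Among 16 tested metabolic targets, 3 had all d24 libraries above and 1 below, with a median of 0.70. Over the 14 tested both ways it was 0.58, and 0.11 without d24 replicate 3. Dglucy, D-glutamate cyclase, had 23.99, 21.9 and 18.2 in d24 and 6.09, 7.75 and 4.61 in wt. It was apart by 1.74 ± 0.33 (limma, adjusted p = 0.156), and by 1.85 ± 0.37 without d24 replicate 3, where it passed (adjusted p = 0.0242). Cpt1c, a neuronal relative of the carnitine palmitoyltransferases, was 5.14, 3.93 and 4.97 against 0.353, 0 and 0.384. It is 1 of the 3, reached the filter through the d24 group alone and was not tested without d24 replicate 3. Sesn2, a sestrin that restrains mTOR, was 12.6, 10.3 and 19.2 against 6.28, 4.88 and 6.17, separate but not past the threshold (limma adjusted p = 0.350). Of 6 secreted and other targets, 4 had all d24 libraries above, with a median of 1.26 (0.90 without replicate 3). Pltp, phospholipid transfer protein, was 69.2, 59.7 and 95.3 against 31.6, 35.3 and 28.0, and passed without d24 replicate 3 (1.02 ± 0.19, limma adjusted p = 0.0166). Zfp365 was 14.7, 8.87 and 7.98 against 3.02, 2.07 and 2.63, with no overlap and no call (limma adjusted p = 0.234). Eda2r, a death-domain receptor of the panel, was below the filter, at 0.631, 3.01 and 3.62 in d24 and 0, 0 and 0.974 in wt.

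Over all p53 target lists, 62 of 67 genes were tested, 17 had all d24 libraries above and 2 all below, and the median was 0.41. One of the 17, Cpt1c, reached the filter through d24 alone. Over the 60 tested both ways the median was 0.39, and 0.26 without d24 replicate 3, where 6 passed higher and none lower. Of the 180 tested X-ray raised genes of paired-end wt thymus, 56 had all d24 libraries above and 2 all below (background 9.02% and 7.55%), 5 of the 56 having reached the filter through d24 alone. Their median was 0.72. Over the 171 tested both ways it was 0.65, and 0.41 without d24 replicate 3, with 12 passing higher and none lower. The 147 of them that are on no p53 list had a median of 0.74, and the 139 tested both ways 0.65, and 0.41 without that library. The 21 tested genes that X-rays lowered had a median of -0.44 that turned to 0.34 without d24 replicate 3. In the paired-end table, Bax was 25.9 ± 1.66 untreated and 160 ± 7.47 after X-rays, Ccng1 75.004 ± 3.98 and 502 ± 42.9, and Pmaip1 7.60 ± 1.32 and 41.0 ± 0.426 (SD, n = 3 each, normalised separately).

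The d24 minus wt difference was set beside that of spleen and liver in 1 fit over 18 libraries. The other tissues carry label conflicts of their own: by the characteristics, spleen was X-ray in d24 and control in wt, and liver was control in d24 and X-ray in wt. The thymus difference departed from that of spleen for 105 of 16092 genes (limma, 0.652%; 0.510% higher and 0.143% lower in thymus), and from that of liver for 48 (0.298%; 0.224% and 0.0746%). These counts were 66 and 9 without d24 thymus replicate 3. In the panel only Cdkn1a passed: its log2 difference was 1.16 in thymus, 5.59 in spleen and 2.41 in liver. Thymus minus spleen was -4.42 ± 0.83 (limma, adjusted p = 0.0159). The liver groups of Cdkn1a overlapped, at 360, 364 and 108 in d24 and 17.7, 34.4 and 147 in wt. Pmaip1 stood at 2.30 in thymus, 1.96 in spleen and -0.32 in liver, but thymus minus liver did not pass (2.62 ± 0.66, limma adjusted p = 0.0953). Ccng1 stood at 1.35, 2.26 and 0.59, Bbc3 at 2.00, 1.21 and 0.07, and Tnc at 1.53, 1.19 and 0.10, with no tested difference passing.

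**Figure D3:**
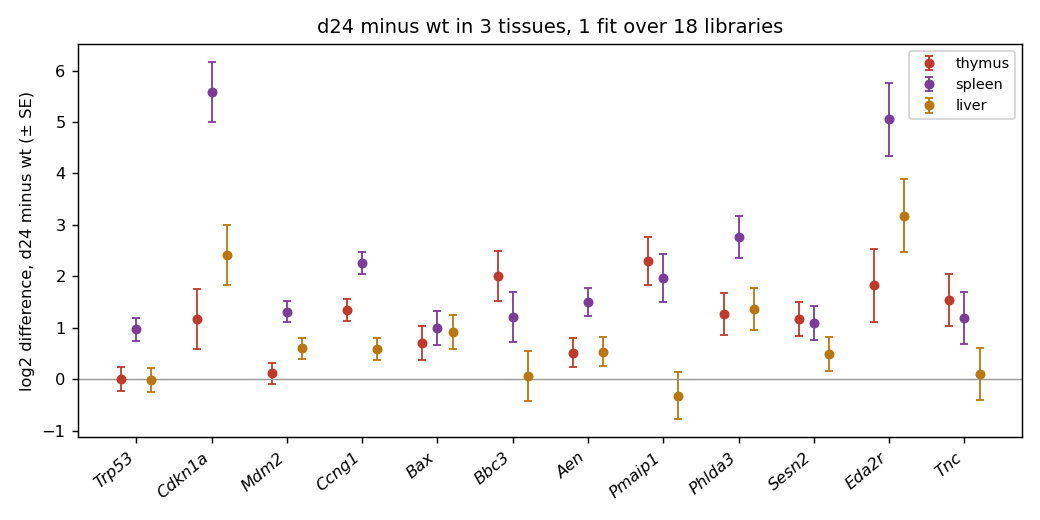
Log2 difference, d24 minus wt (points, ± SE from 1 fit over 18 libraries, 3 per group), of the p53 panel and Tnc in thymus, spleen and liver. Cdkn1a is at 1.16 in thymus and 5.59 in spleen, while the error bars of Bax overlap in all 3 tissues.

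Thymocyte genes had lower values in d24, and none passed in the 6 libraries. All 20 pan T cell genes had a negative log2 difference, 9 with all d24 libraries below (background 7.55%), and the median was -0.30 (-0.17 without d24 replicate 3). Cd3e, a signalling chain of the T cell receptor, was 231, 244 and 197 in d24 and 303, 303 and 304 in wt. Cd5, which tunes receptor signals, was 111, 105 and 89.8 against 142, 161 and 130. Both were below wt in every d24 library, at limma adjusted p = 0.361 and 0.350. All 16 genes of CD4 CD8 double positive thymocytes were also negative, 6 of them with no overlap, with a median of -0.35 (-0.17). Rag1 was 2268, 2732 and 1623 in d24 and 3010, 3432 and 3001 in wt, and Ccr9, a chemokine receptor of cortical thymocytes, 474, 642 and 487 against 723, 755 and 651. d24 replicate 3 was the lowest for Rag1.

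Genes of other thymocyte stages were mixed. Kit, the stem cell factor receptor of the earliest thymocytes, was 3.45, 3.91 and 10.5 in d24 and 14.1, 16.6 and 20.8 in wt, below in every library. It passed without d24 replicate 3 (-2.07 ± 0.38, limma adjusted p = 0.0129, against 0.313 in all 6), while its list of 14 early genes had a median of 0.23 (-0.14 without). Single positive and egress genes had a median of -0.09 over 17 genes (-0.19 without d24 replicate 3). Bcl2, the survival factor, was 39.0, 47.0 and 79.5 against 25.7, 37.7 and 26.8, above in every d24 library. The 8 regulatory T cell genes had a median of -0.34 (-0.37), with Ikzf2 (Helios) at 37.7, 33.3 and 19.3 against 42.8, 52.7 and 57.7. The 9 natural killer and gamma-delta genes were mixed, 5 positive and 4 negative, 3 with all d24 libraries above and 1 below, with a median of 0.08. One of the 3, the natural killer receptor Klrd1, reached the filter through d24 alone. Over the 8 tested both ways the median was -0.05, and 0.13 without d24 replicate 3. The pore former Prf1 was 2.08, 1.14 and 2.39 against 2.31, 3.95 and 4.55, while the granule protease Gzmb was 14.7, 10.4 and 11.3 against 1.47, 2.41 and 3.28. Its groups were far apart, by 2.16 ± 0.44, without a call (limma adjusted p = 0.206, and 0.0687 without d24 replicate 3).

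The cortical thymic epithelium, which positively selects thymocytes, had 6 of 14 genes with all d24 libraries above and none below, with a median of 0.47 (0.59 without d24 replicate 3). Of the 14, 9 were positive and 5 negative. By limma no gene passed in all 6 libraries, and 4 passed without d24 replicate 3. DESeq2 on all 6 called 1 higher. Psmb11, the proteasome subunit of cortical epithelium, had the most negative difference (-1.60 ± 1.26), at 160, 95.8 and 1.35 in d24 and 84.99, 87.1 and 105 in wt. Its d24 replicate 3 was far below the rest, and the difference was 0.43 without it. Krt18, a keratin of cortical epithelium, was 284, 240 and 253 in d24 and 173, 153 and 150 in wt, a separation of 0.70 ± 0.15 (limma adjusted p = 0.220, and 0.00929 without d24 replicate 3). Prss16, the thymus-specific serine protease, was 876, 588 and 401 against 473, 404 and 432. Only d24 replicates 1 and 2 lay above wt, and Prss16 passed without replicate 3 (adjusted p = 0.0174). Ly75 (DEC-205) and the protease Ctsl were the others to pass there. Ctsl was 1307, 973 and 2712 against 720, 685 and 808. Medullary epithelium had a median of 0.12 over 14 genes (-0.04), 1 with all d24 libraries above, Trp63, the p53 relative that maintains epithelial progenitors, at 30.7, 37.0 and 148 against 19.6, 14.9 and 24.98.

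All 20 fibroblast and matrix genes had positive log2 differences, 10 with no overlap, at a median of 1.33. Over the 19 tested both ways it was 1.32, and 0.87 without d24 replicate 3, where 4 passed. Cxcl12, a chemokine that retains progenitors, was 303, 228 and 293 in d24 and 131, 141 and 168 in wt, apart by 0.90 ± 0.17 (limma adjusted p = 0.156, and 0.00598 without d24 replicate 3). Col1a2, a type I collagen chain, was 34.5, 49.4 and 114 against 21.6, 14.3 and 18.6. The proteoglycan Dcn was 56.3, 78.6 and 298 against 37.5, 10.9 and 25.04. In all of these but Cxcl12, replicate 3 was the highest. The summed fibroblast signal was 895, 1113 and 2233 in d24 and 659, 517 and 535 in wt. Tenascin-C is made by such cells, and the part of the fibroblast signal in the Tnc difference was not tested.

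Other supporting cells followed with wider spread. Endothelial genes had 8 of 16 with all d24 libraries above, 1 of which, the lymphatic receptor Lyve1, reached the filter through d24 alone, and a median of 0.64. Over the 15 tested both ways it was 0.58, and 0.43 without d24 replicate 3. Esam, an adhesion molecule of endothelium, was 7.37, 8.65 and 17.4 against 6.28, 1.51 and 3.87. Smooth muscle and pericyte genes had a median of 0.65 over 11 genes (0.56), with Acta2 at 16.5, 13.2 and 40.4 against 8.50, 3.18 and 4.55. All 12 macrophage genes were positive, 9 with no overlap, with a median of 0.73 (0.46). Limma called none, and DESeq2 on all 6 libraries called 2 higher. The mannose receptor Mrc1 was 28.2, 31.1 and 59.8 against 9.48, 18.6 and 8.45. Mertk, the receptor by which macrophages take up dying cells, was 9.62, 7.53 and 18.1 against 2.50, 4.17 and 2.86.

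B cell genes mostly went the other way, 8 negative and 3 positive of 11, the highest at 1.22. Of the 11, 5 were below wt in every d24 library and none above, and the median was -1.12. Over the 10 tested both ways it was -0.86, and -0.72 without d24 replicate 3. Ms4a1 (CD20) was 0.682, 1.09 and 2.27 in d24 and 13.01, 9.20 and 5.26 in wt, and passed without d24 replicate 3 (-2.73 ± 0.57, limma adjusted p = 0.0334). Cd79a, a chain of the B cell receptor, was 1.45, 1.48 and 2.46 against 16.6, 10.8 and 3.40. Dendritic cell genes were mixed, 7 positive and 4 negative of 11, with a median of 0.37 (-0.05 without d24 replicate 3) and with 2 having all d24 libraries below and none above. The 2 were Siglech and Fscn1. The plasmacytoid receptor Siglech was 0.273, 0.0279 and 1.26 against 3.15, 7.44 and 4.08. Fscn1, an actin bundler of mature dendritic cells, was 35.1, 25.002 and 42.3 against 65.9, 58.3 and 52.8 and passed without d24 replicate 3 (adjusted p = 0.0271). Plasma cell genes were mixed too, 4 positive and 2 negative of 6, 3 with all d24 libraries above and 1 below, with 1 on each side having reached the filter through 1 group alone. Jchain, which links antibody units, was that gene on the lower side, at 0.956, 0.446 and 0 against 2.26, 3.55 and 4.87. Mzb1, a chaperone of antibody-secreting cells, had 58.9, 70.2 and 32.9 against 19.7, 29.3 and 22.2, above wt in every d24 library, and passed without d24 replicate 3 (1.44 ± 0.22, limma adjusted p = 0.00284).

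The genes foreign to the thymus described here differed widely between the d24 libraries. Hepatocyte genes had 4 of 8 with all d24 libraries above, 1 of the 4 through the filter by d24 alone, with a median of 2.72. Over the 5 tested both ways it was 3.15, and 1.75 without d24 replicate 3. Alb, albumin, was 11.8, 47.6 and 793 in d24 and 2.06, 0.185 and 4.43 in wt, above 0 in all 6, and passed without d24 replicate 3 (3.57 ± 0.71, limma adjusted p = 0.0232). The summed hepatocyte signal was 59.5, 161 and 1961 in d24 and 39.9, 28.9 and 31.9 in wt. Hba-a2, an alpha globin, was 31.0, 27.5 and 5355 against 147, 144 and 80.7: replicate 3 was far above wt and the other d24 libraries below, and without replicate 3 Hba-a2 passed as lower (-2.02 ± 0.21, limma adjusted p = 3.46e-05). The erythroid median was 0.48 over 9 genes. Over the 6 tested both ways it was 0.72, and -1.70 without that library. Neutrophil genes had a median of 1.79 over 9 genes, and over the 6 tested both ways 1.90, and 1.03 without d24 replicate 3. S100a9 was 2.76, 14.04 and 88.6 against 3.53, 0.772 and 6.08.

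**Figure D4:**
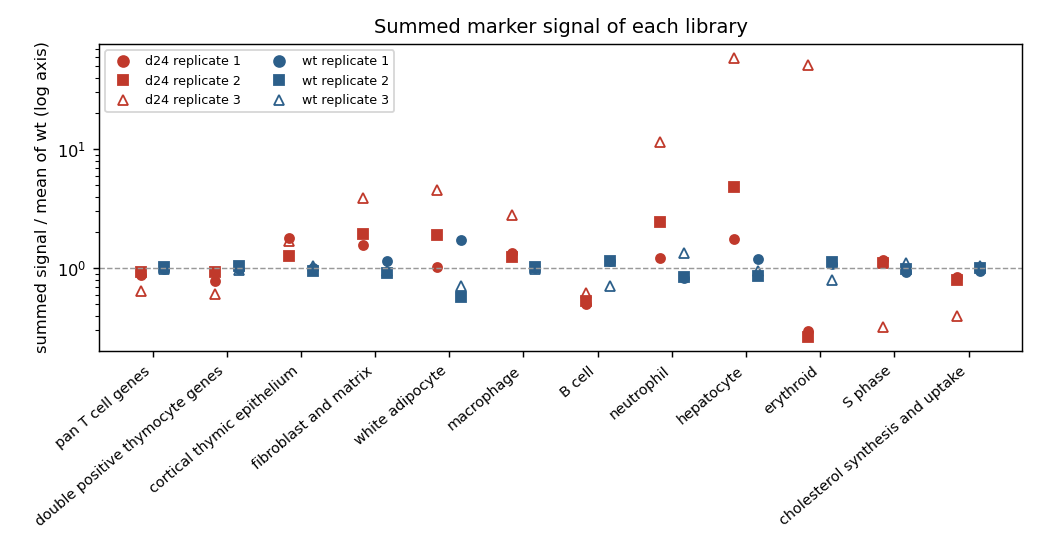
Summed signal of 12 marker lists in each library, divided by the mean of the 3 wt libraries (log axis; d24 red, wt blue, open triangles replicate 3). d24 replicate 3 is highest for hepatocyte and erythroid markers and lowest for T cell, S phase and cholesterol genes, and d24 replicates 1 and 2 lie above wt for fibroblast markers.

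Lipid genes split by pathway. Of 25 cholesterol synthesis and uptake genes, 23 had negative log2 differences and 8 had all d24 libraries below (background 7.55%), with a median of -0.47 (-0.25 without d24 replicate 3) and no call. Srebf2, the transcription factor that drives this pathway, was 134, 125 and 68.9 in d24 and 215, 196 and 152 in wt. Fdps, farnesyl diphosphate synthase, was 15.3, 14.5 and 8.47 against 26.7, 18.8 and 24.8, and Cyp51, lanosterol demethylase, 41.0, 38.5 and 17.6 against 57.5, 48.5 and 57.6. All d24 values were below wt for these, with replicate 3 the lowest (limma adjusted p = 0.344 to 0.408). The summed signal of the list was 872, 821 and 408 against 977, 1039 and 1068, and S phase genes were low in the same library. Fatty acid and triglyceride synthesis genes had a median of -0.07 over 18 genes (-0.02).

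Fatty acid oxidation and PPAR target genes were higher in value: 23 of 24 were positive and 7 had all d24 libraries above, with a median of 0.58. Over the 23 tested both ways it was 0.54, and 0.37 without d24 replicate 3. Cpt1a, which admits long-chain fatty acids to mitochondria, was 135, 130 and 208 in d24 and 89.0, 83.1 and 86.8 in wt. It was apart by 0.83 ± 0.20 (limma adjusted p = 0.233) and by 0.61 ± 0.14 without d24 replicate 3, where it was the only one of the list to pass (adjusted p = 0.0498). Cpt2, its partner on the inner membrane, was 10.7, 16.8 and 13.4 against 6.60, 6.73 and 5.76, and the fatty acid carrier Cd36 36.8, 71.9 and 133 against 37.2, 31.1 and 27.9. White adipocyte markers, also rich in lipid genes, were all positive: 18 of 18, 4 with no overlap (1 of them through the filter by d24 alone). Limma called none, and DESeq2 on all 6 libraries called 1 higher. The median was 1.43. Over the 15 tested both ways it was 1.36, and 0.78 without d24 replicate 3. Their summed signal was 202, 374 and 886 in d24 and 336, 113 and 141 in wt, so that 1 wt library lay within the d24 range. The 9 sterol efflux and LXR targets had a median of 0.47 that went to -0.07 without d24 replicate 3. Apoe, the lipid carrier of macrophages, was 284, 259 and 826 against 198, 201 and 150.

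The cell cycle lists turned with 1 library. All 30 S phase genes had negative log2 differences, with a median of -0.44, yet in none did all d24 libraries lie below wt, and without d24 replicate 3 the median was 0.24. G2 and mitosis genes gave -0.25 and 0.16, and ribosome biogenesis genes -0.17 and 0.15. Interferon-stimulated genes were 13 negative and 6 positive of 19, with a median of -0.44 (-0.49). Of these, 6 were below wt in every d24 library and 1, Xaf1, above. The summed signal of the list overlapped, at 498, 445 and 585 in d24 and 599, 520 and 576 in wt. Oasl1 was 2.12, 3.38 and 1.01 in d24 against 10.5, 9.35 and 5.37. Glucocorticoid-responsive genes had a median of 0.74, and of 0.04 without d24 replicate 3. Their leading member, the metallothionein Mt1, was 17.1, 20.4 and 120 against 4.81, 4.63 and 2.36 and passed without that library (2.16 ± 0.44, limma adjusted p = 0.0274).

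**Figure D5:**
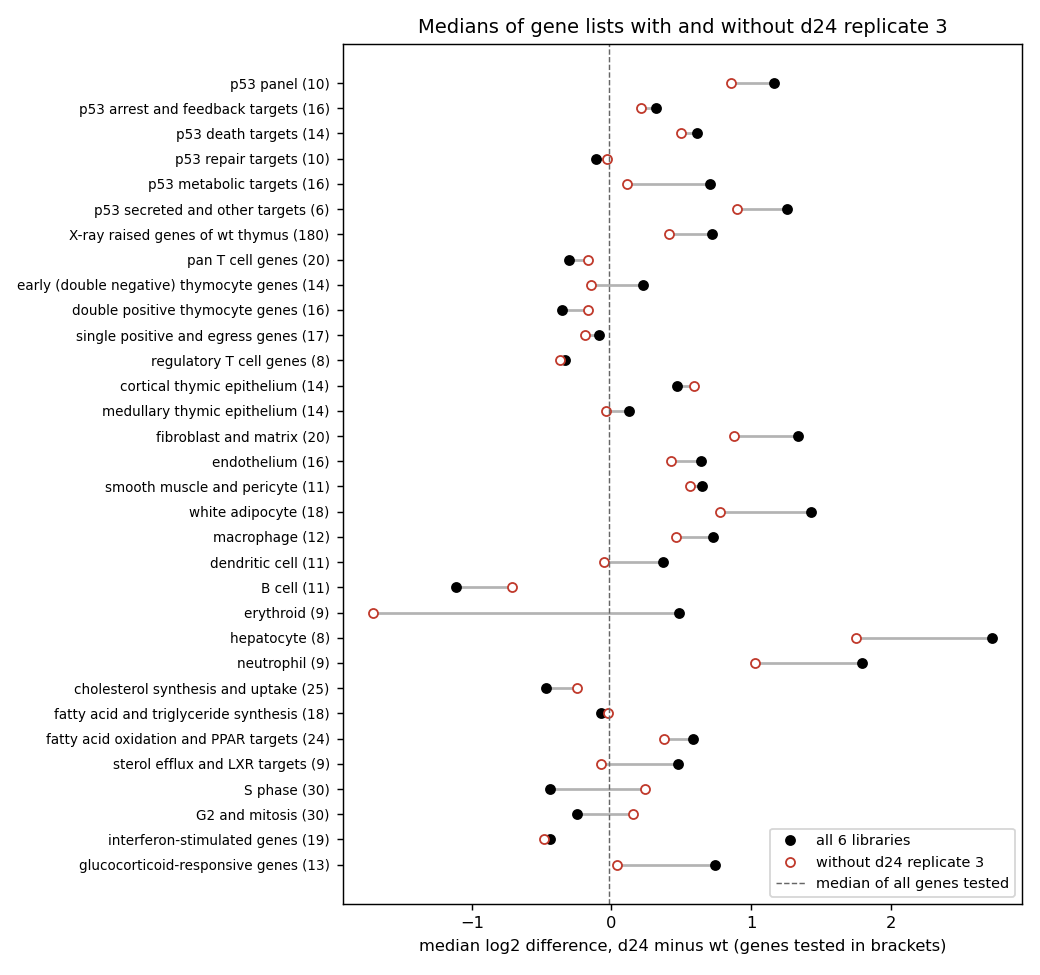
Median log2 difference, d24 minus wt, of 32 gene lists over all 6 libraries (filled) and without d24 replicate 3 (open), with the median of all genes as a dashed line and the number of genes tested in all 6 in brackets; open points cover the genes tested there, fewer for 10 lists. The p53 panel, fibroblast and hepatocyte medians are above 0 both ways, while 7 others, among them S phase and erythroid, change sign.

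The 12 genes of smallest p in the 6 libraries, chosen after their values were seen, were Tnc, Ybx2, Akr1c18, Xaf1, Ccng1, H1f10, Pmaip1, Cbr2, Synpo, Ei24, Smoc1 and Dsp. Only Tnc passed, and all 12 passed without d24 replicate 3. The libraries of that fit also gave the ranking, so it is no separate check of these genes. Leaving out another library instead gave 0 to 4 calls over all genes. Ybx2, a Y-box RNA-binding protein of germ cells, was 0.154, 0.0837 and 0.184 in d24 and 10.2, 11.9 and 9.51 in wt. Nearly absent from d24 (-4.11 ± 0.51, limma adjusted p = 0.0570), it reached the filter through the wt libraries alone, which fixed its separation. Xaf1, an interferon-induced death factor, was 42.2, 35.8 and 54.0 against 11.7, 5.83 and 10.2, higher in every d24 library (2.23 ± 0.31, limma adjusted p = 0.0763). Both lie on chromosome 11 near Trp53, starting 0.355 and 2.72 Mb from its start. Of 279 tested genes within 10 Mb of Trp53, 46 had groups that did not overlap (16.5%, against 16.6% of all genes). Akr1c18, a progesterone-inactivating reductase, was 30.3, 28.4 and 32.5 against 3.94, 6.36 and 6.70, and the carbonyl reductase Cbr2 134, 81.8 and 343 against 24.2, 22.8 and 24.4. H1f10, a linker histone, was lower in each d24 library, at 5.90, 5.999 and 6.51 against 34.5, 22.7 and 24.4. Smoc1, a secreted matrix protein, was also lower, at 4.83, 11.1 and 2.85 against 48.3, 37.0 and 29.7. The actin-associated Synpo was 22.5, 14.3 and 29.7 against 3.78, 3.83 and 3.04, and the desmosomal Dsp 151, 111 and 170 against 66.4, 65.4 and 49.0.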

How the data were processed

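Total RNA was prepared for sequencing with a stranded kit, per the labels' protocols. The authors deposited 1 value per gene and library, here called signal. The submitters' processing notes name edgeR and mm10, and the sources used here do not name an aligner or a counter. The paired-end values are labelled cpm, and no scaling is named for the single-end values. Of the single-end values, 100% came out as whole multiples of a library's step (tolerance 0.01), which gave the reads for edgeR and DESeq2. Gene numbers matched a symbol for 17186 of 17697 genes. A further 18 columns of the paired-end table were not used.

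Log2(signal + 0.5) was fitted with limma 3.58.1 (R 4.3.3, empirical Bayes with trend). Genes entered where 3 or more libraries reached a signal of 1, p-values were adjusted by Benjamini-Hochberg over them all, and the threshold was 0.05. Differences on this scale understate changes of low genes. edgeR 4.0.16 and DESeq2 1.42.0 were alternatives, and the code was tested on simulated data. Tissues were compared in 1 fit over the 18 single-end libraries.

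The comparison and its 48 lists were chosen with earlier results of these data known. The naming rule takes the p53 panel, up to 12 called genes each way (absolute log2 of at least 1, mean of at least 5, no overlap) and up to 4 members of smallest p per list. Other genes, among them those of the last paragraph and members named because they passed without d24 replicate 3, fill a role or go against their list, were chosen after their values were seen.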

Additional observations from a re-analysis of the deposited data

Results flagged for a closer look

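The difference between d24 and wt was itself tested between tissues, and for 7 of the named genes the thymus difference departed from that of spleen or liver (limma, Benjamini-Hochberg adjusted p under the threshold of 0.05; 3 libraries per group). Cdkn1a was one, at -4.42 ± 0.83 for thymus minus spleen (adjusted p = 0.0159). Zfp365, another p53 target, had a log2 difference of 1.81 in thymus and 5.43 in spleen, so that thymus minus spleen was -3.62 ± 0.67 (adjusted p = 0.0159). Ybx2 was at -4.11 in thymus, 0.26 in spleen and 0.12 in liver, giving -4.36 ± 0.82 against spleen (adjusted p = 0.0174) and -4.23 ± 0.82 against liver (adjusted p = 0.0356). Its wt signal was at most 0.191 in spleen and 1.03 in liver, so a fall like that in thymus could not appear there. In the thymus comparison Ybx2 reached the filter through the wt libraries alone. These departures therefore do not show a genotype effect particular to thymus. Klrd1, a natural killer cell receptor, was at 2.46 in thymus and -2.80 in spleen, a departure of 5.26 ± 1.11 (adjusted p = 0.0348). Its thymus signal was 3.05, 1.76 and 3.04 in d24 and 0, 0.185 and 0 in wt. S100a9 was at 2.32 in thymus, -3.47 in spleen and -3.74 in liver, giving 5.79 ± 1.27 (adjusted p = 0.0409) and 6.06 ± 1.27 (adjusted p = 0.0476), with d24 thymus replicate 3 the highest thymus library. Rag1 was at -0.54 in thymus and -3.85 in liver, a departure of 3.31 ± 0.61 (adjusted p = 0.0330). Smoc1 was at -2.69 in thymus and 1.57 in liver, a departure of -4.25 ± 0.89 (adjusted p = 0.0476). By the characteristics, d24 was control and wt X-ray in thymus and liver, and the reverse in spleen. Genotype and exposure therefore cannot be told apart in these departures.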

How the results depend on the processing

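The single call by limma was fragile. Genes called in d24 against wt thymus numbered 2 with a pseudocount of 2 (1 higher, 1 lower), 2 with quantile normalisation (1 higher, 1 lower), 0 without a filter (0 higher), 0 with log2 Xist as covariate (0 higher), 2 with edgeR (1 lower) and 1 without trend (0 higher, 1 lower); DESeq2 gave 266 (229 higher, 37 lower) and the fit over 18 libraries 118 (108 higher, 10 lower). With the replicate block 0 were called (0 higher). Same-numbered libraries deviated together at r of -0.063, 0.0068 and -0.046, and no library deviated most like its own number. With 3 libraries a group, such values cannot show whether the numbers pair the samples. The block gave 90 and 44 calls for thymus minus spleen and liver. Leaving out 1 library gave 0 to 71 calls, 0 to 43 higher and 0 to 28 lower, with 0 without any wt library and 71 without d24 replicate 3. Chosen after seeing the data, DESeq2 without d24 replicate 3 gave 168 calls (87 higher, 81 lower) and log2 Xist as covariate without it 18 (10 higher, 8 lower).

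Thymus minus spleen calls were 60 with a pseudocount of 0.1, 43 with a mean of at least 5, 42 with edgeR and 433 with DESeq2, and 36 to 145 without 1 library (lowest without wt spleen replicate 3, highest without d24 spleen replicate 1). Thymus minus liver calls were 30 and 78 with pseudocounts of 0.1 and 2, 21 with a mean of at least 5, 27 with median-ratio scaling and 373 with DESeq2, and 2 to 123 without 1 library (wt liver replicate 2 and d24 liver replicate 3).

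Trp53 changed sign with the Xist covariate (-0.086) and lay between -0.12 and 0.16 without 1 library. Hba-a2 ranged from -2.02 (without d24 replicate 3) to 1.77 without 1 library, and was -2.10 without that replicate with DESeq2 and -1.87 with the Xist covariate. Psmb11 ranged from -2.79 to 0.43 without 1 library (d24 replicates 1 and 3), and was 0.46 without d24 replicate 3 with DESeq2 and 0.39 with the Xist covariate. Tnc lost its call without a filter (limma adjusted p = 0.0872), without trend (0.0938), with the block (0.119), with the Xist covariate (0.120) and in the fit over 18 libraries (0.205). For megakaryocyte, cardiac muscle and parathyroid genes, some settings left no gene to give a median. No scaling moved the median of all genes by 0.1 on the log2 scale. With 3 libraries a group, 1 of them apart, differences that did not pass are not shown to be absent.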
